A study of Homo sapiens with 22 samples.

Results

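The comparison described here is D9 against D7 of a time course in which human fibroblasts were reprogrammed by transfected mRNA in microfluidic chips, and it asks which genes changed over the interval around the onset of pluripotency genes. It rests on 7 of the 22 libraries of the series, 3 from D7 and 4 from D9, chosen by their labelled day alone, and on 7625 of the 41975 kept cells. BJ cells, an established line of human foreskin fibroblasts, had been transfected nightly, 8 times in all, with non-modified mRNA for POU5F1, SOX2, KLF4, MYC, LIN28 and NANOG, in Pluriton medium under 5% oxygen, so that all groups carried the same factors. From D9 the medium was StemMACS iPSBrew, and the last transfections fell between D7 and D9, so that time, further transfections and the change of medium cannot be told apart in this comparison. Each of the 2 replicates per day (pools A and B) held the cells of 4 chips, which were frozen in aliquots, thawed, and profiled with the 10x 3' assay. The pool is the replicate, and libraries of the same pool were added together. With 2 pools per day, p-values measure the spread between pools of 1 line.

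A pluripotent cell is held in its state by a network of transcription factors (POU5F1, SOX2, NANOG and others) that activate one another and many other genes. In human pluripotent cells this network is kept active by Nodal or activin signalling. A ligand binds type I and type II receptors, in the case of Nodal with the coreceptor TDGF1. SMAD2 and SMAD3 are then activated, and FOXH1 brings them to target genes that include NODAL itself and its inhibitors LEFTY1 and LEFTY2. Reprogramming of a fibroblast also involves a mesenchymal-to-epithelial transition, in which cadherins, claudins and splicing regulators of epithelia appear and mesenchymal transcription factors and matrix genes decline.

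The pools held 1727 cells (D7 A), 2503 cells (D7 B), 1742 cells (D9 A) and 1653 cells (D9 B), and their summed counts ran from 112553545 to 142760321 unique molecular identifiers (UMIs, each marking 1 captured RNA molecule). D7 A was the deepest pool per cell, with a median of 80168 UMIs, against 50287 in D7 B, 61404.5 in D9 A and 62964 in D9 B. The 2 pools of D7 lay further apart than those of D9: 165 genes differed by over 2-fold between the D7 pools and 10 between the D9 pools. For these counts 1 UMI per 1e6 UMIs was added to each level, which shrinks the fold of genes at low levels. Aliquots of a pool differed as well, and the first aliquot of D9 A kept only 143 cells. Of the 21 pairs of libraries, 11 shared cell barcodes, at most 11 barcodes a pair, which was at most 0.785% of the smaller library. The fibroblast label was checked against its markers: all 20 listed fibroblast markers stood above 1 CPM (UMIs per 1e6 UMIs of the pool, scaled by TMM) in all 4 pools, the lowest being DPP4 at 1.30 CPM in D9 B, with a summed level of 14716 and 21087 CPM on D7 and of 9145 and 7813 CPM on D9.

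Among 12794 genes tested, 943 (7.37%) were called, that is, had an adjusted p under 0.01 and a log2 fold change beyond 0.25 in edgeR's quasi-likelihood test. Of these, 587 genes (4.59% of those tested) were higher on D9 and 356 (2.78%) were lower. The median log2 fold change of all genes tested was −0.02. The rises were also larger than the falls: 107 genes rose and 5 fell by at least 8-fold. The falls were the less secure calls. Called falls numbered 320, 50, 75 and 15 when D7 A, D7 B, D9 A or D9 B was left out, against 392, 259, 380 and 295 rises. In all, 242 rises and 14 falls were called whichever pool was left out.

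**Figure D1:**
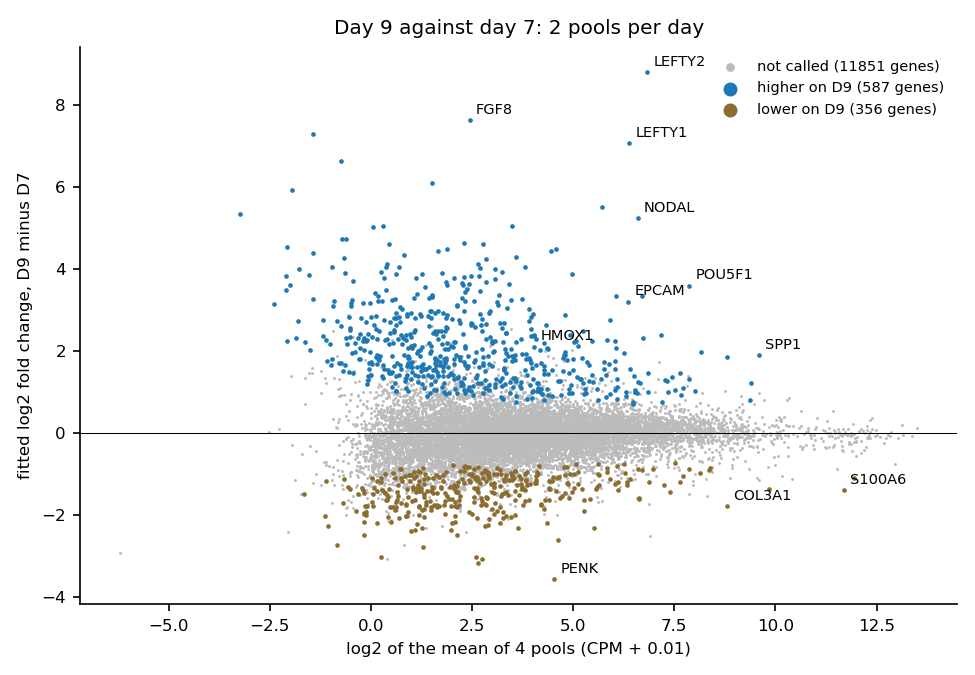
Fitted log2 fold change of D9 over D7 (vertical axis) against the log2 of the mean level of the 4 pools in CPM (horizontal axis), 1 point per gene, with called genes in blue (higher on D9) and brown (lower). The 587 rises reach a log2 fold change of 8.79 (LEFTY2), whereas the 356 falls end at −3.56 (PENK) in the range of levels above 20 CPM.

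Among called genes at 20 CPM or more in both pools of D9, the largest rises were those of LEFTY2 and LEFTY1, inhibitors of Nodal signalling, and NODAL was among the 10 largest. LEFTY2 (ENSG00000143768, chromosome 1 of GRCh38, 225936598 to 225941383), a secreted antagonist of Nodal, stood at 0.210 and 0.811 CPM in D7 A and B and at 224 and 227 CPM in D9 A and B. It went from near absence in both D7 pools to the same level in both D9 pools, a log2 fold change of 8.79 (standard error 0.64, adjusted p = 8.58e-06 from edgeR). LEFTY1 (ENSG00000243709, 225886282 to 225911382), its neighbour and close copy on the same strand, stood at 1.39 and 1.09 CPM on D7 and at 165 and 168 CPM on D9 (log2 fold change 7.07, standard error 0.45, adjusted p = 5.69e-06). Because the copies are so alike in sequence, reads could be split between them, and their separate levels are uncertain to that extent. All 4 D9 libraries were high, with LEFTY2 between 189 and 257 CPM, and all 3 D7 libraries were low, between 0.210 and 0.908 CPM.

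The ligands rose with the inhibitors. NODAL (ENSG00000156574, chromosome 10, 70431936 to 70447951) stood at 6.94 and 3.06 CPM on D7 and at 178 and 198 CPM on D9 (log2 fold change 5.23, standard error 0.51, adjusted p = 4.38e-05). GDF3, a related ligand, went from 25.5 and 13.9 CPM to 95.9 and 92.0 CPM (2.25, adjusted p = 0.00144 from edgeR). TDGF1, the coreceptor also called Cripto, went from 133 and 100 CPM to 469 and 446 CPM (1.97, adjusted p = 3.93e-04 from edgeR). For these 3 genes the D9 pools lay close together and well above both D7 pools. INHBA, which encodes the activin A subunit, was at 14.0 and 12.4 CPM on D7 and 18.7 and 19.1 CPM on D9 and was not called (adjusted p = 0.207 from edgeR).

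Receptors and the SMAD mediators gave no call. The log2 fold changes were −0.45 for ACVR1B, −0.15 for ACVR2A and 0.45 for ACVR2B, and 0.05, 0.40 and 0.20 for SMAD2, SMAD3 and SMAD4, with adjusted p from edgeR between 0.144 and 0.883. FOXH1, the DNA-binding partner of these SMADs, was called, from 12.1 and 7.27 CPM to 50.5 and 50.3 CPM (2.38, standard error 0.28, adjusted p = 1.58e-04). The intracellular feedback inhibitors SMAD7 (1.94) and SKIL (1.53) and the activin-binding protein FST (1.94) were called as well, FST from 32.6 and 30.2 CPM to 113 and 127 CPM. SMAD7 was low, at 0.777 and 1.48 CPM on D7 and 4.46 and 4.20 CPM on D9. FURIN, a protease that cleaves ligand precursors, was at 0.27 and was not called.

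Of the 25 genes of the Nodal list, 20 were tested, 10 were called higher (50% of those tested, against 4.59% of all genes tested) and none lower, and the median log2 fold change was 1.18, against −0.02 over all genes tested. By role, the calls were 3 of the inhibitors that act outside the cell (LEFTY1, LEFTY2 and CER1), FST, the ligands NODAL and GDF3, the coreceptor, FOXH1, SMAD7 and SKIL. Whichever pool was left out, 7 of the 10 stayed called. TDGF1, GDF3 and SMAD7 did not stay called. CER1, another secreted inhibitor, had 0 and 1 UMIs in the D7 pools and 68 and 102 in the D9 pools. The ratio was 208, with a 95% interval of 36.9 to 8274 that covers counting error only. Most of these UMIs came from the first aliquots, in which CER1 stood at 4.504 CPM (D9 A) and 1.73 CPM (D9 B), against 0.0950 and 0.169 CPM in the second, and it was not called when libraries of fewer than 500 cells were left out. It remained under 1 CPM in both D9 pools, and 0.0574% and 0.423% of D9 cells carried a UMI at an even depth.

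**Figure D2:**
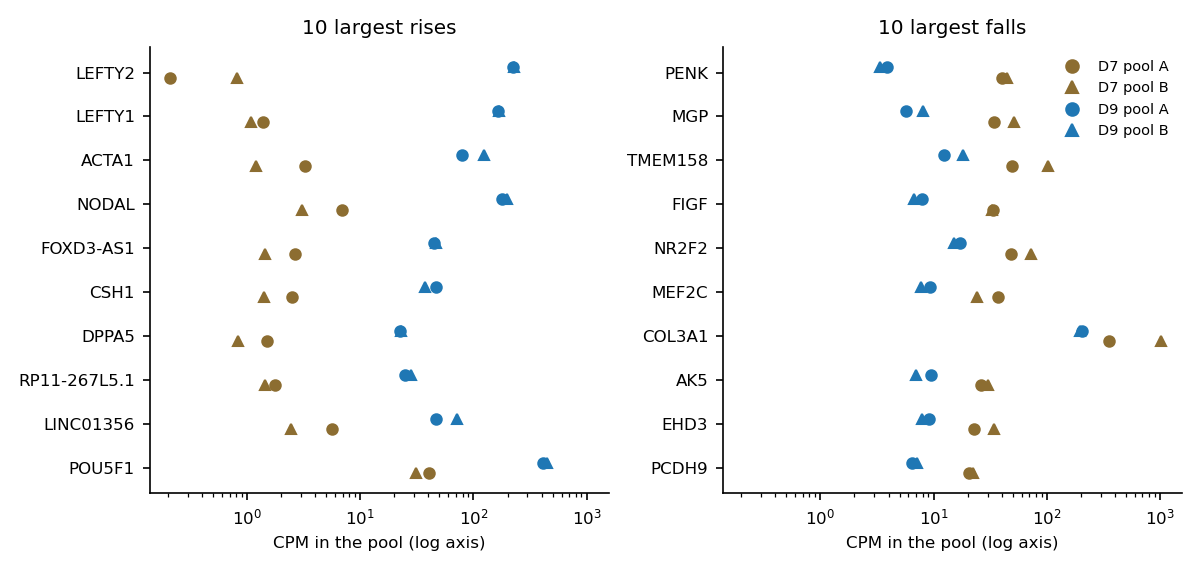
Level in CPM (log axis) of the 10 genes with the largest called rises and the 10 with the largest called falls from D7 to D9 among genes at 20 CPM or more in both pools of the higher day, with D7 in brown, D9 in blue, circles for pool A and triangles for pool B. The days do not overlap for any of these genes, which the selection required and which held for 64.8% of all genes tested; the D7 pools of COL3A1 lie at 358 and 1025 CPM, the D9 pools at 203 and 196.

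A rise in a pool sum can come from more cells with the RNA or from more RNA per cell. The sums alone cannot tell these apart. Shares of cells with a UMI were taken after each cell had been thinned to 5000 UMIs, and no cell was too shallow for this. The share in the untransfected fibroblasts of D0 is given beside them. A share at a set depth also grows with the RNA per cell, so it does not separate the 2 either. The D0 share does not measure the free RNA that droplets of a D9 library could take up, which was not tested. LEFTY2 was found in 0.118% ± 0.00286 (SD, n = 2 pools) of D7 cells and 31.1% ± 2.28 of D9 cells, against 0.0189% of D0 cells. Its D7 share rests on very few cells, and the SD between pools does not measure that counting error. NODAL was found in 1.88% ± 1.19 of cells on D7 and 36.5% ± 5.27 on D9, and in 0 of 10776 D0 cells at that depth, which allows a share of up to 0.0278%; without thinning it was found in 0.0163% and 0.0216% of the cells of the D0 pools. TDGF1 was already found in 21.8% ± 9.13 of D7 cells and in 59.5% ± 2.54 on D9, against 0.00814% of D0 cells.

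The cells that held these RNAs also held more of them. Cells with a UMI of TDGF1 had on average 1.96 and 2.32 UMIs in the D7 pools and 3.73 and 3.33 in the D9 pools. For NODAL the means were 1.17 and 1.27 on D7 and 2.56 and 2.32 on D9. Both D9 pools lay above both D7 pools in each case. Without thinning LEFTY2 was found in 1.27% of D7 cells and 71.4% of D9 cells, against 0.173% of D0 cells. NODAL was then found in 13.3% of D7 cells and 69.5% of D9 cells, and TDGF1 in 65.7% and 86.3%.

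Of the 6 transfected factors, POU5F1 and NANOG were called, and the counts cannot separate transfected RNA from that of the cell's own gene. On D3 and D5, under the same transfections, POU5F1 stood at 0.668 and 1.51 CPM and then 3.32 and 6.21 CPM. NANOG stood at 0.0848 and 0.0499 CPM and then 0.817 and 0.562 CPM. On D3 LIN28A stood at 14.5 and 70.1 CPM and SOX2 at 3.52 and 13.3 CPM, each near absent on D0. The part of transfected RNA in the D9 levels was not tested. POU5F1 (ENSG00000204531, chromosome 6, 31164337 to 31180731) stood at 40.2 and 31.2 CPM on D7 and 414 and 446 CPM on D9 (log2 fold change 3.59, standard error 0.37, adjusted p = 6.93e-05 from edgeR). NANOG (chromosome 12, 7787794 to 7799146) stood at 12.8 and 10.1 CPM on D7 and 65.2 and 62.7 CPM on D9 (2.48, standard error 0.22, adjusted p = 2.89e-05). Both genes have processed copies elsewhere in the genome, with which reads could be shared. POU5F1 was found in 11.1% and 5.35% of D7 cells and in 41.8% and 57.2% of D9 cells at 5000 UMIs, against 0.0731% of D0 cells. Without thinning the shares were 69.7% and 24.2% on D7 and 78.9% and 89.1% on D9.

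The other 4 factors were not called, and 3 of them had pools that overlapped between the days. LIN28A stood at 222 and 86.6 CPM on D7 and 164 and 143 CPM on D9 (−0.01, adjusted p = 0.996 from edgeR). SOX2 stood at 27.0 and 11 CPM and then 29.7 and 21.6 CPM, and KLF4 at 2.84 and 8.12 CPM and then 6.52 and 5.06 CPM. For all 3 the D7 pools differed by over 2-fold between themselves. Aliquots of a pool also differed for LIN28A and SOX2, by most in D9 A. LIN28A stood at 849 CPM in the first aliquot of D9 A, which kept 143 cells, and at 79.8 CPM in the second, at 213 and 85.9 CPM in those of D9 B and at 208 and 52.0 CPM in those of D7 B. SOX2 stood at 159 and 13.8 CPM, 30.8 and 13.9 CPM, and 24.6 and 7.14 CPM in the same aliquots, so that D9 A would be under 0.5 of its value for either gene without its first library. The first aliquot was the higher in all 3 pools for both genes, while POU5F1 and NANOG lay between 408 and 470 CPM and between 55.4 and 77.7 CPM in the 4 D9 libraries. MYC was at 18.7 and 23.3 CPM on D7 and 48.5 and 45.1 CPM on D9, with no overlap, and its log2 fold change of 1.16 did not pass the threshold (adjusted p = 0.073 from edgeR).

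Calls in the wider network were all rises. Of 27 tested pluripotency regulators, 17 were called higher (63.0%, against 4.59% of all genes tested) and none lower, with a median log2 fold change of 1.74. DPPA4, a chromatin-associated marker of pluripotent cells, went from 13 and 10.7 CPM to 121 and 120 CPM (3.35, standard error 0.25, adjusted p = 8.80e-06 from edgeR). TERF1, a telomere-binding protein high in stem cells, went from 68.5 and 54.6 CPM to 158 and 178 CPM (1.45), and SALL4, a zinc finger factor, from 11.7 and 9.28 CPM to 27.0 and 29.7 CPM (1.43). FOXD3 (4.60), OTX2 (4.27) and DPPA2 (4.13), at 11 CPM or less in D9 A, were called as well. UTF1 was at 84.1 and 44.5 CPM and then 196 and 233 CPM and was not called (1.74, adjusted p = 0.0179 from edgeR). Whichever pool was left out, 9 of the 17 stayed called, DPPA4 among them, while TERF1 was called in 2 of the 4 fits that leave out a pool and SALL4 in none.

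Of 19 tested stem cell surface and other markers, 15 were called higher (78.9%, against 4.59% of all genes tested) and none lower, with a median of 1.55, and 5 of these stayed called whichever pool was left out. GAL, a neuropeptide abundant in pluripotent cells, went from 496 and 325 CPM to 951 and 945 CPM (1.21, adjusted p = 0.00298 from edgeR). CD24, a surface glycoprotein, went from 180 and 160 CPM to 355 and 338 CPM (1.03). SFRP2, a secreted modulator of WNT signalling, rose by a log2 fold change of 1.55 and SEMA6A, a membrane semaphorin, by 2.76. SFRP2 and SEMA6A stayed called whichever pool was left out, and GAL and CD24 did not.

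Among the DNA methylation enzymes DNMT3B was called. DNMT3B, the de novo methyltransferase typical of pluripotent cells, stood at 3.70 and 3.90 CPM on D7 and 27.4 and 29.3 CPM on D9 (2.9, standard error 0.25, adjusted p = 2.21e-05 from edgeR). It was the only one of 11 tested members that was called (9.09%, against 4.59% of all genes tested called higher). DNMT1, the maintenance enzyme, was at −0.38, DNMT3A at 0.82, and TET1, which oxidises 5-methylcytosine, at 1.21 (adjusted p = 0.0214 from edgeR, short of the call), while TET2 and TET3 were at −0.78 and −0.35.

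Of 8 tested naive-state genes, 4 were called higher and 1 lower (62.5%, against 7.37% of all genes tested). DPPA5 went from 1.48 and 0.825 CPM to 22.3 and 23.0 CPM (4.29), KHDC3L by 3.82, DPPA3 from 1.97 and 0.977 CPM to 6.54 and 6.31 CPM (2.12) and the surface marker SUSD2 by 1.81. TBX3 fell, from 19.2 and 27.3 CPM to 11.2 and 12.1 CPM (−1.0, adjusted p = 0.00789 from edgeR). It had been higher before, at 146 and 137 CPM in the untransfected fibroblasts of D0 and 50.9 and 46.4 CPM on D5. SUSD2 was called in none of the 4 fits that leave out a pool and TBX3 in 1. Another 9 of the 19 listed genes were under 1 CPM in all 4 pools. ACTA1, FOXD3-AS1, RP11-267L5.1 and LINC01356 are an alpha-actin of skeletal muscle and 3 long non-coding RNAs. With the placental hormone gene CSH1 they complete the 10 largest rises among genes at 20 CPM or more in both D9 pools. ACTA1 stood at 3.25 and 1.19 CPM on D7 and 79.2 and 125 CPM on D9 (5.52, standard error 0.61).

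By number, though not by share, epithelial genes made up the largest group of called genes in any list. Of 42 tested, 26 were called higher (61.9%, against 4.59% of all genes tested) and none lower, the median log2 fold change was 1.77, and 15 stayed called whichever pool was left out. EPCAM (chromosome 2, 47345158 to 47387601), the epithelial cell adhesion molecule, stood at 21.5 and 10.9 CPM on D7 and 135 and 162 CPM on D9 (3.20, standard error 0.32, adjusted p = 5.34e-05 from edgeR). CLDN6, a claudin of tight junctions, went from 55.5 and 36.5 CPM to 233 and 247 CPM (2.38) but was called in none of the 4 fits that leave out a pool, and SPINT2, a membrane-bound protease inhibitor, from 39.0 and 31.6 CPM to 179 and 172 CPM (2.31). CDH1, which encodes E-cadherin, was low on both days but rose from 0.329 and 0.232 CPM to 5.66 and 6.44 CPM (4.43, standard error 0.32, adjusted p = 8.58e-06 from edgeR).

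Of 6 listed regulators of the epithelial state 3 were tested, and all 3 were called higher, against 4.59% of all genes tested; they were picked from the epithelial list after their values were seen. ESRP1, which directs epithelial splicing, went from 0.966 and 1.01 CPM to 15.1 and 16.3 CPM (3.99), its relative ESRP2 rose by 2.85, and OVOL2, a transcriptional repressor of mesenchymal genes, by 2.97. GRHL1, GRHL2 and OVOL1 did not pass the filter on detection. KRT18 and KRT8, keratins of simple epithelia, were already abundant on D7 and were not called. KRT18 stood at 1113 and 700 CPM on D7 and 1476 and 1680 CPM on D9 (0.80, adjusted p = 0.092 from edgeR), and KRT8 at 559 and 405 CPM and then 789 and 859 CPM (0.77, adjusted p = 0.139). EPCAM was found in 5.34% ± 3.09 of D7 cells and 33.5% ± 7.08 of D9 cells at 5000 UMIs, against 0.817% of D0 cells. Without thinning it was found in 34.7% of D7 cells and 70.4% of D9 cells.

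The proximal promoters of 4 epithelial genes are shown because they hold the E-box CACCTG, the letters bound by the SNAI and ZEB repressors, which read CAGGTG on the other strand. In the 250 bases before the start site, from RefSeq's GRCh38.p14 promoters, that motif was found in 17.5% of all 27305 promoters, in 15.3% of the 9545 matched promoters of all genes tested, in 24.0% of the 391 matched promoters of genes called higher, in 13.5% of the 259 of genes called lower, and in 9 of the 22 matched among the 42 tested epithelial genes. Of the 26 called epithelial genes 15 were matched and 7 had the motif. The 4 of these with the highest levels on D9 are printed 5′ to 3′ with the motif in capitals on either strand. RAB25 is a small GTPase of epithelial vesicles, AP1M2 an adaptor subunit for basolateral sorting, DSG2 a desmosomal cadherin and OCLN the tight junction protein occludin. RAB25 lies at chr1:156060910-156061159 (plus strand), AP1M2 at chr19:10587313-10587562 (minus strand), DSG2 at chr18:31497927-31498176 (plus strand) and OCLN at chr5:69492297-69492546 (plus strand).
RAB25: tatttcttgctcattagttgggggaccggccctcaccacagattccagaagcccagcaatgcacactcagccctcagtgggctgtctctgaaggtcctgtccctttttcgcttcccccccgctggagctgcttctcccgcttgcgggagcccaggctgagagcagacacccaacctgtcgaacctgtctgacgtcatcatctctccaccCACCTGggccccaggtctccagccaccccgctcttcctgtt
AP1M2: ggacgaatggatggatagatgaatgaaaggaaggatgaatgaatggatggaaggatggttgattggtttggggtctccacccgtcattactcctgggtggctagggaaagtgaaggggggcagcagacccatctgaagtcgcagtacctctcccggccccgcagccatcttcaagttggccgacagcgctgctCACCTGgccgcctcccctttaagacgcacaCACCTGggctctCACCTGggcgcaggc
DSG2: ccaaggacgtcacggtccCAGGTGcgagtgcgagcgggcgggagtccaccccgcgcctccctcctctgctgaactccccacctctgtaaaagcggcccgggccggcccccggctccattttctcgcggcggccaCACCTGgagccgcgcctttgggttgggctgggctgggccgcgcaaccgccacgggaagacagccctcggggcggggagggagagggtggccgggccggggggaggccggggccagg
OCLN: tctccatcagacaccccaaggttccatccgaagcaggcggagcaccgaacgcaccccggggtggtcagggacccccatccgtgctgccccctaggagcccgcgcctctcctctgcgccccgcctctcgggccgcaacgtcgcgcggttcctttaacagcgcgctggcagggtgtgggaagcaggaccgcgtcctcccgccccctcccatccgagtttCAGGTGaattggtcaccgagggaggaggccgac

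The printed windows hold 1, 3, 2 and 1 copies, and those nearest to the start site begin 41, 15, 116 and 33 bases before it. RAB25 stood at 0.700 and 0.738 CPM on D7 and 13.3 and 14.0 CPM on D9 (log2 fold change 4.25), and AP1M2 at 1.92 and 1.63 CPM and then 13.4 and 13.4 CPM (2.92). DSG2 stood at 1.01 and 0.782 CPM and then 6.90 and 8.77 CPM (3.13), and OCLN at 2.04 and 2.12 CPM and then 6.89 and 7.36 CPM (1.77). All 4 were called, with both D9 pools above both D7 pools. A match of letters is a description and not a bound site, and 8 of the 15 matched promoters of called epithelial genes lack the motif, CLDN6 and LSR among them.

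In all 8 motifs were searched on both strands. The other 7 were found in 6.46% (CACGTG), 1.67% (ATGCAAAT), 0.692% (AATCCACA), 42.2% (GGGCGG), 11.2% (TATAAA), 2.94% (CCACACCC) and 13.5% (GCCCCGCCC, which contains the complement of GGGCGG) of all promoters. In promoters of genes called higher these 7 stood at 6.91%, 2.05%, 0.256%, 62.7%, 9.46%, 3.84% and 23.5%, against 8.94%, 1.13%, 0.293%, 68.4%, 5.19%, 2.57% and 25.3% in promoters of all genes tested. The octamer ATGCAAAT was in none of the 19 matched promoters of tested pluripotency regulators and in 1 of the 15 of the Nodal list. LEFTY1, LEFTY2, POU5F1, EPCAM, CDH1 and COL3A1 are not in the table of promoters.

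**Figure D3:**
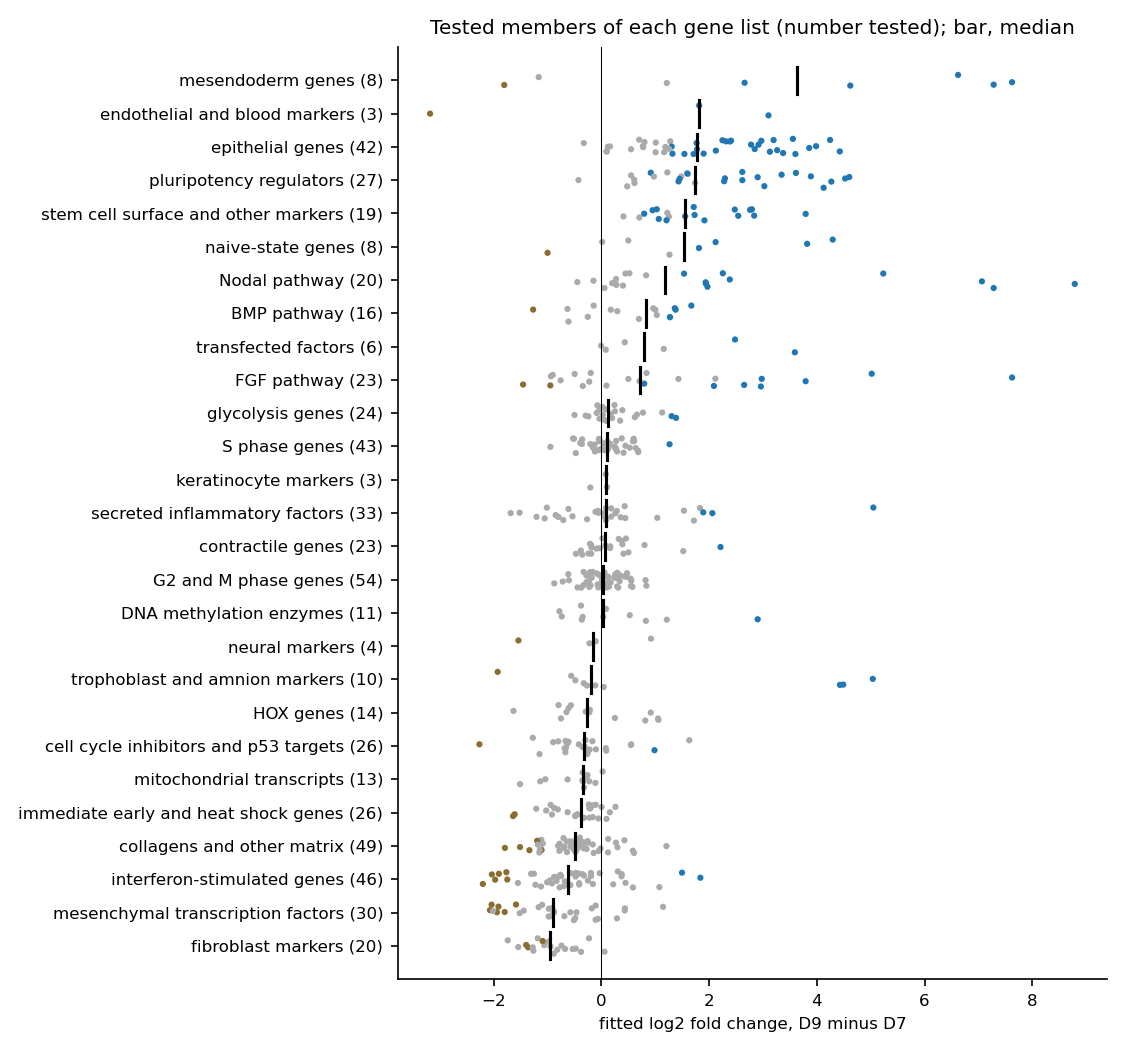
Fitted log2 fold change from D7 to D9 of every tested member of the 27 gene lists (1 point per gene, vertical jitter only for display), with called rises in blue, called falls in brown, genes that were not called in grey and the list median as a bar. Epithelial genes (26 of 42), pluripotency regulators (17 of 27) and stem cell markers (15 of 19) hold only rises among their calls, and mesenchymal transcription factors (6 of 30), fibroblast markers (3 of 20) and collagens (5 of 49) only falls.

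Among mesenchymal and fibroblast genes the calls were falls, and they were fewer. Of 30 tested mesenchymal transcription factors, 6 were called lower (20%, against 2.78% of all genes tested) and none higher, with a median log2 fold change of −0.90. NR2F2, an orphan nuclear receptor, stood at 48.8 and 72.7 CPM on D7 and 17.0 and 15.2 CPM on D9 (−1.91, standard error 0.29, adjusted p = 8.22e-04 from edgeR). TWIST2, a bHLH repressor of epithelial genes, went from 111 and 185 CPM to 59.2 and 39.4 CPM (−1.59), and NR2F1 (−2.07) and OSR2 (−1.94) were called as well. SNAI2, ZEB1, ZEB2 and TWIST1, which repress E-cadherin, gave −0.69, −1.10, −0.98 and −0.89 and were not called, with adjusted p from edgeR between 0.0446 and 0.371. SNAI1, a close relative of SNAI2, was at 5.17 and 5.10 CPM and then 7.0 and 6.89 CPM and was not called.

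Of 20 tested fibroblast markers, 3 were called lower (15.0%, against 2.78% of all genes tested) and none higher, with a median of −0.96. S100A6 and S100A4, calcium-binding proteins, and LGALS1, a galectin, are among the most abundant of them. S100A6 stood at 3852 and 5717 CPM on D7 and 2025 and 1606 CPM on D9 (−1.40, standard error 0.23, adjusted p = 0.00131 from edgeR). S100A4 went from 1233 and 1390 CPM to 563 and 458 CPM (−1.36), and LGALS1 from 4401 and 6240 CPM to 2692 and 2300 CPM (−1.09). VIM, the mesenchymal intermediate filament, was at 2722 and 4945 CPM on D7 and 2190 and 1957 CPM on D9 and was not called (−0.89, adjusted p = 0.144 from edgeR).

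Of 49 tested collagens and other matrix genes, 5 were called lower and none higher, with a median of −0.48. The share called lower was 10.2%, against 2.78% of all genes tested. COL3A1 (chromosome 2, 188974373 to 189012746), a fibrillar collagen, stood at 358 and 1025 CPM on D7 and at 203 and 196 CPM on D9 (−1.79, standard error 0.39, adjusted p = 0.00798 from edgeR). Both D7 pools were above both D9 pools, and D7 B was far above D7 A, so that the log2 fold change was −0.82 without D7 B and the gene was then not called. COL1A1 showed the same spread on D7, at 571 and 1560 CPM, against 512 and 446 CPM on D9, and was not called (adjusted p = 0.0976 from edgeR). FN1, which encodes fibronectin, was at 128 and 203 CPM and then 181 and 180 CPM, with overlapping pools. None of the falls in these 3 lists was called whichever pool was left out, and none of the 5 falls of the matrix list was called without the libraries of D7 and D9 that kept fewer than 500 cells.

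The aliquots of a pool also differed in these genes. COL3A1 stood at 81.2 CPM in the first and 217 CPM in the second aliquot of D9 A, at 82.3 and 287 CPM in those of D9 B and at 685 and 1118 CPM in those of D7 B. The summed level of the 20 fibroblast markers was 5435 and 9573 CPM in the aliquots of D9 A, 6083 and 9176 CPM in D9 B and 16626 and 22284 CPM in D7 B, against 14680 CPM in the single library of D7 A. The first aliquot was thus the lower in all 3 pools with a pair, and all 4 D9 libraries lay below all 3 D7 libraries. For the summed collagens and other matrix genes the days overlapped. They stood at 2569 and 4139 CPM in D9 A and 2332 and 4512 CPM in D9 B. The D7 levels were 4143 CPM in D7 A and 6444 and 9354 CPM in D7 B. The summed epithelial genes ran the other way from the fibroblast markers. They stood at 4172 and 3300 CPM in D9 A and 4160 and 3443 CPM in D9 B, against 1431 to 2094 CPM in the D7 libraries. LEFTY1 held between 159 and 174 CPM in all 4 D9 libraries. The part of aliquot or thawing in these levels was not tested.

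The shares of cells with COL3A1 or S100A4 fell with their sums, while that of LGALS1 went only from 99.9% to 97.5% at 5000 UMIs. COL3A1 was found in 77.8% ± 10.7 of D7 cells and 32.9% ± 2.78 of D9 cells at 5000 UMIs, against 74.2% of D0 fibroblasts. S100A4 was found in 95.4% ± 3.58 of D7 cells and 60.9% ± 0.383 of D9 cells at that depth. Without thinning COL3A1 was found in 99.96% of D7 cells and 82.4% of D9 cells, and S100A4 in 99.98% and 98.0%. The shares at 5000 UMIs are thus not shares of cells that lack the RNA. Cells of D9 that did carry COL3A1 had on average 4.62 and 4.70 UMIs of it, between the 3.28 of D7 A and the 8.50 of D7 B.

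**Figure D4:**
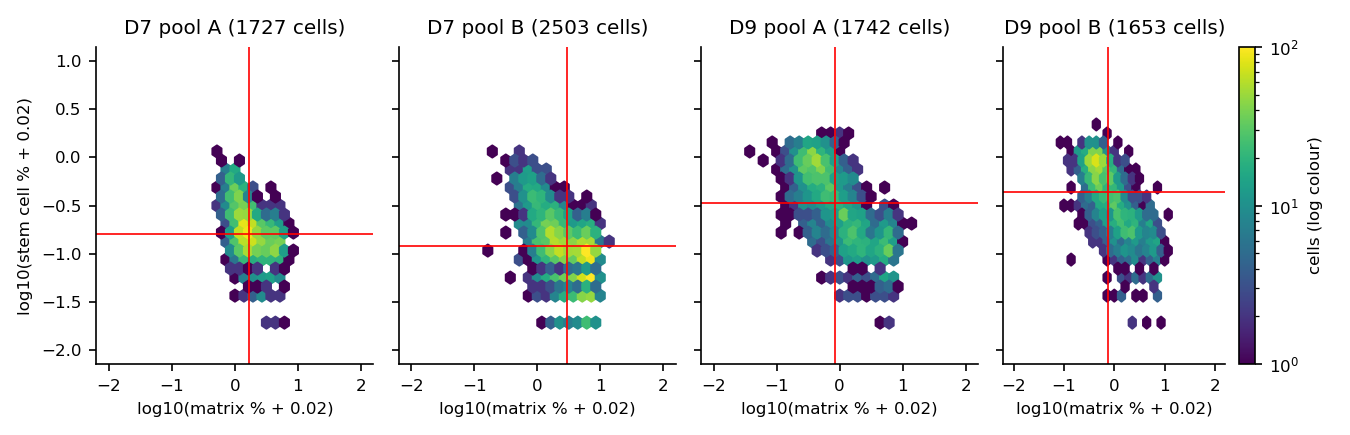
Share of each cell's UMIs on 5 gene lists after thinning to 5000 UMIs, 1 panel per pool: collagens, other matrix genes and fibroblast markers (horizontal axis) against pluripotency regulators, stem cell markers and Nodal genes without the transfected factors (vertical axis), both as log10 of percent plus 0.02, with colour for the number of cells and red lines at the medians. The median matrix share was 1.64% and 2.98% in the D7 pools and 0.820% and 0.720% in the D9 pools, and the D9 cells form a band from low matrix and high stem cell share to high matrix and low stem cell share.

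Within a pool the cells spread widely between both programmes. The share of a cell's UMIs on stem cell genes had a median of 0.140% in D7 A and 0.100% in D7 B and of 0.320% in D9 A and 0.420% in D9 B. The highest 10% of D9 cells lay above 1.02% (A) and 1.00% (B), against 0.360% and 0.280% on D7. The matrix share of the highest 10% of cells was still 5.14% and 3.38% in the D9 pools, against 4.32% and 7.18% on D7, so that for this upper tail the days overlapped while the medians did not. Both shares come from the same UMIs of a cell, so they are not independent measures.

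Among called genes at 20 CPM or more in both pools of D7, PENK, the precursor of enkephalins, fell most. It is outside these lists and went from 40.3 and 44.6 CPM on D7 to 3.85 and 3.35 CPM on D9 (−3.56, standard error 0.66, adjusted p = 0.00302 from edgeR). It stood at 0.544 and 4.25 CPM in the aliquots of D9 A, 0.285 and 5.82 CPM in those of D9 B and 10.4 and 54.1 CPM in those of D7 B. At D5 it stood at 10.9 and 1.89 CPM, so that its level on D7 was the highest of the 3 days. MGP, a matrix protein that inhibits calcification, fell from 34.0 and 51.0 CPM to 5.72 and 8.10 CPM (−2.62), and FIGF, the growth factor VEGF-D, from 33.6 and 32.9 CPM to 7.88 and 6.68 CPM (−2.19). Together with NR2F2 and COL3A1, TMEM158 (−2.32), MEF2C (−1.85), AK5 (−1.77), EHD3 (−1.74) and PCDH9 (−1.66) complete the 10 largest falls among genes at that level. Their calls held in between 0 and 3 of the 4 fits that leave out a pool.

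FGF signalling, the other signal on which human pluripotent cells depend, showed calls in both directions. Of 23 tested members 8 were called higher and 2 lower (43.5%, against 7.37% of all genes tested), with a median of 0.71, and 6 to 8 were called when a pool was left out. Among the ligands FGF8 stood at 0.0630 and 0.0434 CPM on D7 and 11.2 and 10.3 CPM on D9 (7.63, standard error 0.41, adjusted p = 2.33e-06 from edgeR), FGF18 at 1.86 and 1.26 CPM and then 9.36 and 10.2 CPM (2.65), FGF4 at 0.560 and 0.753 CPM and then 10.0 and 8.17 CPM (3.79), FGF19 at 2.42 and 1.05 CPM and then 14.0 and 13 CPM (2.96) and FGF2 at 12.6 and 15.7 CPM and then 23.3 and 25.8 CPM (0.79). DUSP6 and DUSP4, phosphatases that switch off ERK and are themselves induced by it, fell from 72.9 and 78.4 CPM to 37.9 and 40.4 CPM (−0.95, adjusted p = 8.74e-04 from edgeR) and from 43.3 and 37.8 CPM to 15.5 and 14.0 CPM (−1.46). Of the 4 fits that leave out a pool, DUSP6 was called in 1 and DUSP4 in none. The immediate early genes EGR1 (−1.61) and FOSB (−1.64) were the 2 of 26 tested members of their list that were called, both lower. That share was 7.69%, against 2.78% of all genes tested called lower, and each was called in 1 of the 4 fits that leave out a pool.

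Of 16 tested BMP genes, 4 were called higher and 1 lower (31.2%, against 7.37% of all genes tested), and 1 to 3 were called when a pool was left out, ID1 in every case and BAMBI and SMAD9 in none. ID1, a target of BMP signalling that inhibits bHLH factors, stood at 105 and 89.3 CPM on D7 and 248 and 252 CPM on D9 (1.36, standard error 0.16, adjusted p = 1.29e-04 from edgeR). BAMBI, a decoy receptor, rose by 1.67, ID2 by 1.27 and the ligand BMP7 by 1.38, while SMAD9, a BMP mediator, fell (−1.27). BMP4 was at 43.6 and 50.1 CPM and then 73.0 and 78.7 CPM and was not called (0.69, adjusted p = 0.105 from edgeR).

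Genes of mesendoderm, the precursor of mesoderm and endoderm, were low on D9, none of the called ones above 15 CPM. Of 22 listed genes 8 were tested, 5 were called higher and MESP1 was called lower (75.0% of those tested, against 7.37% of all genes tested), MESP1 in none of the 4 fits that leave out a pool, and 14 were under 1 CPM in all 4 pools. FGF8 and CER1, already counted in the FGF and Nodal lists, were among the rises, so these calls are not separate from those above. MIXL1, a homeobox factor of the primitive streak, went from 0.392 and 0.369 CPM to 8.66 and 10.1 CPM (4.62), and WNT3, a ligand that induces the streak, from 2.37 and 1.53 CPM to 10.2 and 14.4 CPM (2.66). EOMES had 3 and 0 UMIs in the D7 pools and 112 and 160 in the D9 pools, a ratio of 111 with a 95% counting interval of 37.6 to 542, and was found in 0.402% and 0.363% of D9 cells. T, or brachyury, had no UMI in either D7 pool and 161 and 200 in the D9 pools, at least 147-fold higher when the 2 D7 pools together are set at a floor of 3 UMIs and UMIs are taken per total UMIs of the pools, with no TMM scaling. It was not tested, because too few cells of the series carried it.

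To see whether the interval was a turn or a continuation, the change from D7 to D9 was tested against the change from D5 to D7. The difference of the changes was called for 2 of 12794 genes (0.0156%), with 1448 genes at an unadjusted p under 0.05 in edgeR and 139 calls with DESeq2. LEFTY1 was at 1.51 and 0.503 CPM on D5, with a log2 fold change of 0.20 to D7 and of 7.07 to D9 (difference 6.87, standard error 0.74, adjusted p = 0.00422 from edgeR). HMOX1, the heme oxygenase induced by oxidative stress, moved down and up, from 19.6 and 21.7 CPM on D5 to 6.65 and 5.76 CPM on D7 and to 24.9 and 28.4 CPM on D9 (difference 3.84, standard error 0.38, adjusted p = 0.00309 from edgeR). It went on to move down and up, at 10.8 and 8.48 CPM on D11, 42.0 and 29.9 CPM on D13 and 18.1 and 19.8 CPM on D15. Both calls were lost when any of the 4 pools of D7 and D9 was left out, and when the fit held only the 6 pools of D5, D7 and D9.

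Changes of named genes in this interval are set beside those in its neighbours, which share the pools of D7 or D9. None of the genes in this paragraph had a called difference between the changes to D7 and to D9. LEFTY2 fell short of that call (adjusted p = 0.0168 from edgeR). LEFTY2 changed by 0.96 from D5 to D7 (adjusted p = 0.529 from edgeR), 8.79 from D7 to D9 and 0.37 from D9 to D11 (adjusted p = 0.648 from edgeR). NODAL changed by 5.98, 5.23 and −0.42, the first of these from 0.112 and 0 CPM on D5. NANOG changed by 4.00, 2.48 and −0.34, POU5F1 by 2.92, 3.59 and 0.99, EPCAM by 2.93, 3.20 and 0.66, and DNMT3B by 1.92, 2.9 and 1.75. CER1, under 1 CPM on D9, reached 109 and 84.5 CPM on D11, and EOMES 11.4 and 8.57 CPM. Of the falls, IFIH1, a sensor of double-stranded RNA, and FIGF were called again from D9 to D11, by −2.71 and −1.98, while the collagens COL6A3 and COL12A1 rose again by 1.57 and 1.71.

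**Figure D5:**
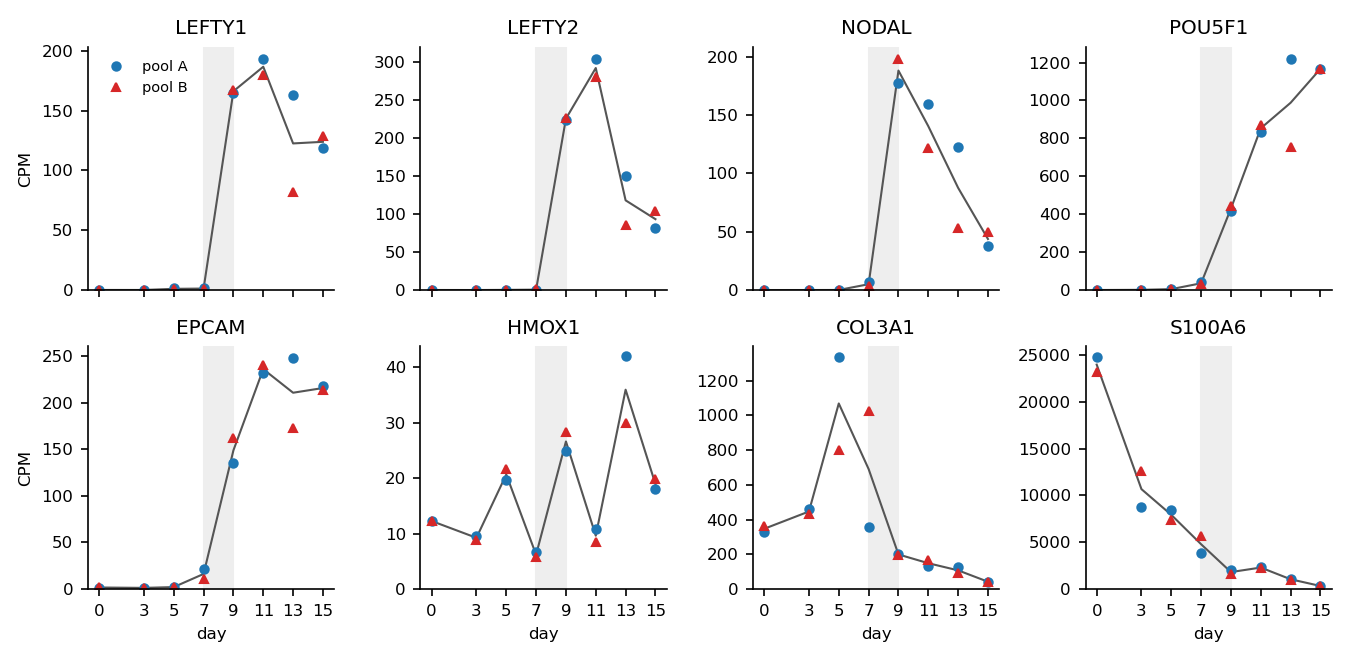
Level in CPM (linear axis from 0) against day of the time course for 8 genes, with pool A as blue circles, pool B as red triangles, the mean of both as a line and the interval from D7 to D9 shaded. LEFTY1 and LEFTY2 stay near 0 up to D7 and NODAL up to D5, with NODAL at 6.94 and 3.06 CPM on D7. All 3 stand between 165 and 227 CPM in all D9 pools. POU5F1 and EPCAM are higher in both D9 pools than in any pool up to D7. HMOX1 is lower in both D7 pools than in any D5 or D9 pool. S100A6 is lower in both D9 pools, at 2025 and 1606 CPM, than in any earlier pool.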

How the data were processed

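The deposited files hold raw UMI counts per gene and cell barcode for each library, which the authors made with Cell Ranger 2.2 on the hg38 genome (GRCh38 annotation, 33694 genes), with no normalization and no cell filter of the study applied. A cell was kept if it had 1000 genes or more and no more than 10% of its UMIs on mitochondrial genes, and counts were summed to 16 pools. Genes with a UMI in at least 5% of kept cells were tested with edgeR 4.0.16 (quasi-likelihood test, TMM scaling, 1 fit over all 16 pools, Benjamini-Hochberg adjustment) in R 4.3.3. A call is an adjusted p under 0.01 with a log2 fold change beyond 0.25. The fit was also run on simulated counts with known changes, and the outcome is not reported here. No doublet caller was run, and removing the 2.5% of cells with the most UMIs per library was an alternative, as were DESeq2 1.42.0 and those listed with the sensitivity results.

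Within lists, up to 4 called members per direction with the highest levels on the higher day are named. Also named are the 10 largest called rises and falls at 20 CPM or more in both pools of the higher day and with no overlap between the days, without mitochondrial and ribosomal protein genes, the genes the study discusses, and all tested transfected factors, Nodal genes and DNA methylation enzymes. HMOX1, T, FGF4, CDH1, ESRP1, ESRP2, OVOL2, FOXD3, OTX2, DPPA2, the genes of the E-box promoters and members of a list that were not called were picked after their values were seen. The members and the 27 gene lists were chosen with earlier results of these data known. Some genes are in several lists and were counted in each. Some genes that these rules name are not reported here. Coordinates are those of GENCODE v44 by Ensembl identifier. Promoter sequences are RefSeq's (1 per gene, the most upstream). Counting intervals are exact binomial at 95%. Pool letters were not treated as pairs: the correlation of A minus B deviations was −0.387 between D7 and D9 and ran from −0.448 to 0.813 over the 28 pairs of days. Figures were drawn with matplotlib 3.10.9.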

Additional observations from a re-analysis of the deposited data

How the results depend on the processing

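The 943 calls between D9 and D7 (587 higher, 356 lower) became 1654 (899 and 755) with DESeq2, 1904 (1252 and 652) with no filter on low genes, 1808 (925 and 883) at a threshold of 0.05 on the adjusted p whatever the fold and 431 (335 and 96) when each cell was thinned to 5000 UMIs. A similar count need not hold the same genes. With only the 4 pools of D7 and D9 in the fit, 792 genes were called, of which 642 were among the 943. Of the 241 falls in that fit, 169 were among the 356. With 1 pool left out, the lone pool of a day being taken to vary like those of the other days, the total ranged from 309 to 712, the rises from 259 to 392 and the falls from 15 to 320. The other settings (DESeq2's size factors, only the 4 pools, sums thinned to the smallest total, stricter cells, without the cells of most UMIs, 2500 cells per day) moved none of these 3 counts by over 1.5 times, and the share of calls that were rises moved from 62.2% to 77.7% with thinned cells, to 51.2% at the looser threshold, and to 83.8%, 83.5% and 95.2% without D7 B, D9 A or D9 B. The 2 genes whose change differed from that of D5 to D7 became 139 with DESeq2, 49 with no filter, 24 at the looser threshold and 0 with only the 6 pools of those days, and ranged from 0 to 0 with 1 pool left out.

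With the pool letter as a replicate block, 995 genes were called (600 higher, 395 lower) and 4 for the difference of changes. The letters were not taken to pair the samples, since the A minus B deviations of 2 days correlated at between −0.448 and 0.813, and at −0.387 for D7 and D9. With the letters of D7 and D9 crossed, a setting chosen after seeing the data, the counts were 873 and 3. Without aliquots of fewer than 500 cells, also chosen after seeing the data, 819 genes were called (560 higher, 259 lower). Of 520 values of the 130 named genes with a pool left out, 166 were no longer called and none reversed. Of 1690 values under the other settings, 99 were no longer called, 9 were newly called and none reversed. Only 94 of the 130 named genes were called at first, so the values of the others could not lose a call in either total. The share of D9 cells with a UMI of LEFTY2 was 20.1% at 2000 and 41.7% at 10000 UMIs per cell. With 2 pools per day, genes that miss the threshold are not shown to be unchanged. The cause of these shifts was not tested.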

Other observations

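Among genes that respond to interferon, which cells switch on when they sense foreign RNA, most of the calls between D7 and D9 were falls. Of 46 tested, 6 were called lower and 2 higher (17.4%, against 7.37% of all genes tested), with a median log2 fold change of −0.62 against −0.02 over all genes tested. IFIH1, a sensor of double-stranded RNA, stood at 18.9 and 13.8 CPM on D7 and 4.58 and 3.37 CPM on D9 (−2.04, standard error 0.32, adjusted p = 0.00107 from edgeR), and IFIT1, which binds foreign RNA caps, at 13.6 and 12.7 CPM and then 3.30 and 3.39 CPM (−1.97). IFI44 (−1.75) and SAMD9 (−1.77) were lower as well. BST2, which tethers virus particles, rose from 6.66 and 6.35 CPM to 21.2 and 25.3 CPM (1.84), and USP18, a brake on the interferon receptor, from 3.81 and 3.54 CPM to 10.1 and 10.7 CPM (1.5). BST2 and USP18 stayed called whichever pool was left out, and none of the 6 falls did. ISG15, at 142 and 153 CPM on D7 and 120 and 116 CPM on D9, was not called.

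Of 33 tested secreted inflammatory factors, 3 were called higher and none lower (9.09%, against 4.59% of all genes tested called higher), with a median of 0.07. SPP1, or osteopontin, rose from 394 and 258 CPM to 1156 and 1259 CPM (1.89, adjusted p = 0.00629 from edgeR), and the gelatinase MMP9 from 0.742 and 0.572 CPM to 18.9 and 24.7 CPM (5.05). SPP1 was called in none of the 4 fits that leave out a pool, MMP9 in all. The cytokines and proteases CXCL1, CXCL8, IL6, MMP1, MMP3, PLAU and the receptor PLAUR were not called, at 0.08, 1.83, 1.53, −0.61, 0.09, −0.06 and 0.44. For all of these the first aliquot was the lower in both D9 pools. CXCL1 stood at 4.12 and 201 CPM in the aliquots of D9 A and 51.7 and 135 CPM in those of D9 B. CXCL8 stood at 0.155 and 55.5 CPM and at 10.3 and 30.3 CPM, and MMP1 at 57.9 and 357 CPM and at 93.7 and 267 CPM. Of 2 ligand and receptor pairs, HGF (−1.52, adjusted p = 0.0296 from edgeR) and MET (−0.89, adjusted p = 0.0362) stayed short of the call, as did NRG1 (0.26), and its receptor ERBB3 was called higher, from 4.21 and 3.66 CPM to 11.1 and 13 CPM (1.62), and in 2 of the 4 fits that leave out a pool. ANPEP, a surface peptidase of fibroblasts, was at 23.1 and 77.4 CPM and then 35.7 and 24.4 CPM, with overlapping pools.

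The placental hormone genes CSH1, CSH2 and GH2, neighbours of nearly the same sequence among which reads may be shared, were the 3 called rises among 10 tested trophoblast and amnion markers, of which 4 were called in all (40.0%, against 7.37% of all genes tested). CSH1 stood at 2.49 and 1.4 CPM on D7 and 46.4 and 37.3 CPM on D9 (4.43) and was found in 5.17% and 7.32% of D9 cells. Its aliquots differed within pools, at 113 and 38.0 CPM in D9 A and 64.1 and 15.4 CPM in D9 B. The list as a whole had a median of −0.19 and a summed level of 337 and 338 CPM on D7 and 341 and 320 CPM on D9, and SLC2A12 was called lower. CSH2 and SLC2A12 were each called in 1 of the 4 fits that leave out a pool, CSH1 and GH2 in all 4. Of the other cell types that a sample could hold, keratinocyte markers gave no call (3 of 14 tested), neural markers 1 fall among 4 tested, that of MAP2 (−1.54), and endothelial and blood markers, of which 3 were tested and all called against 7.37% of all genes tested, 2 rises from levels under 1 CPM, that of KDR among them, and 1 fall, that of HBA1, from 14.3 and 8.30 CPM to 1.68 and 0.809 CPM. MAP2 was called in 3 of the 4 fits that leave out a pool, HBA1 in 2 and KDR in 1. HBA1 has a close copy, with which reads may be shared. Of the endothelial and blood list 12 of 16 genes, and of the keratinocyte list 11 of 14, were under 1 CPM in all 4 pools.

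Of cell cycle genes, 1 of 43 tested S phase genes (2.33%, against 4.59% of all genes tested called higher) and 0 of 54 G2 and M phase genes were called by edgeR, with medians of 0.11 and 0.04. The S phase gene, UNG (1.26), was called in none of the 4 fits that leave out a pool. With DESeq2 2 of the G2 and M phase genes were called. CDKN2C, an inhibitor of cyclin-dependent kinases, fell from 10.6 and 12.8 CPM to 2.45 and 2.41 CPM (−2.27), the only fall named here that stayed called whichever pool was left out. Its relative CDKN1A was at 105 and 135 CPM and then 65.8 and 42.5 CPM and was not called (adjusted p = 0.056 from edgeR). The glucose transporters SLC2A1 (1.38) and SLC2A3 (1.30) were the 2 called genes among 24 of glycolysis (8.33%, against 4.59% of all genes tested called higher), SLC2A1 in none of the 4 fits that leave out a pool, and CNN1, or calponin, rose from 13.4 and 9.64 CPM to 50.7 and 55.8 CPM (2.21) as the 1 call among 23 contractile genes (4.35%, against 4.59% of all genes tested called higher), and in 1 of the 4 fits that leave out a pool. ACTA1, the skeletal muscle alpha-actin that rose by 5.52, was not in the contractile list. None of 14 tested HOX genes and none of 13 mitochondrial transcripts was called by edgeR (0 by DESeq2 for the latter and 2 for the former), with medians of −0.26 and −0.34.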
